A study of Mus musculus with 13 samples.

Results

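The genes described here are 10 interferon-gamma inducible genes of the mouse, chosen by name. They are the guanylate-binding proteins Gbp2, Gbp3, Gbp6 and Gbp7, the immunity-related GTPases Iigp1, Igtp and Irgm1, the transcription factor Irf1, and the chemokines Cxcl9 and Cxcl10. A transcript cluster is the array's set of probes for a transcript. Of the 10 genes, 7 had a cluster that names no other gene, among 19938 genes measured in this way. The other 3 were covered only by clusters that also name close relatives. Gbp2 shared a cluster with Gbp2b, Igtp shared one with Irgm2, and Gbp6 shared one with Gbp4, Gbp8, Gbp9, Gbp10 and Gbp11. Values of these 3 clusters are given as values of the cluster and belong to no single gene.

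The study used Affymetrix Mouse Gene 1.0 ST arrays, 13 in all, on RNA of the mouse rectum. From mutant mice came 5 rectal adenocarcinomas and 4 samples of inflamed mucosa, and from control mice 4 samples of normal mucosa. Mutants were labelled α6fl/fl Villin-Cre, a floxed integrin α6 gene with a Cre recombinase whose Villin promoter is active in intestinal epithelial cells. One label field gives this genotype for all 13 samples, controls included, while another calls the normal samples control. Adenocarcinomas 1, 2, 3, 4 and 6 came from a female of 53 weeks, males of 60, 60 and 64 weeks and a female of 80 weeks. Inflamed mucosa 1 to 4 carried the same sexes and ages as adenocarcinomas 1 to 4. Normal mucosa 1, 2, 4 and 6 came from a female of 53 weeks, males of 60 and 64 weeks and a female of 70 weeks. Tumour and inflamed tissue was dissected from frozen sections of prolapsed rectum and control mucosa was scraped, so tissue and way of collection cannot be told apart in comparisons with normal mucosa.

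Interferon-gamma is a cytokine made mainly by T cells and natural killer cells. It binds a receptor of the subunits IFNGR1 and IFNGR2, which activates the kinases JAK1 and JAK2. The signal reaches gamma-activated sites in promoters, among them that of Irf1, whose product binds interferon-stimulated response elements of further genes. Guanylate-binding proteins and immunity-related GTPases act on the vacuoles of intracellular pathogens, and CXCL9 and CXCL10 attract T cells that carry the receptor CXCR3. Type I interferons induce many of the same genes.

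The promoters of the members show where such sites could lie. In the 250 bases before the annotated start (RefSeq, GRCm38.p6), 8 of the 10 members had a sequence that was searched. The letters of a gamma-activated site, TTCNNNGAA, which read the same on both strands, were present in 3 of the 8 members (Irf1, Gbp7 and Igtp), against 8.13% of 27025 genes with such a sequence. The letters of an interferon-stimulated response element, GAAANNGAAA or TTTCNNTTTC on the opposite strand, were present in 6 of the 8 (Gbp2, Gbp3, Gbp7, Irgm1, Igtp and Cxcl10), against 3.46% of the genes. Over single windows, the shares were 7.02% and 2.98% of 32851. Cxcl9 had neither in this window. One match is shown for each of the 7 members that had any, in capitals with 20 bases on either side, so that the sites can be compared.
Irf1, gamma-activated site letters, chr11:53769904-53769952, plus strand: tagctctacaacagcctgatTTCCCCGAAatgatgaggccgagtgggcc
Gbp2, response element letters, chr3:142620584-142620633, plus strand: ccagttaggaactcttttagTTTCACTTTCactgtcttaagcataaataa
Gbp3, response element letters, chr3:142559979-142560028, plus strand: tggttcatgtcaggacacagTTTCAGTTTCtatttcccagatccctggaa
Gbp7, response element letters, chr3:142530263-142530312, plus strand: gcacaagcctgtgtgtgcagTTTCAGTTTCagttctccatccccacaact
Irgm1, response element letters, chr11:48871421-48871470, minus strand: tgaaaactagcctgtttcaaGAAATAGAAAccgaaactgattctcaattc
Igtp, response element letters, chr11:58199502-58199551, plus strand: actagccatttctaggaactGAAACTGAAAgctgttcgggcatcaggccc
Cxcl10, response element letters, chr5:92349073-92349122, minus strand: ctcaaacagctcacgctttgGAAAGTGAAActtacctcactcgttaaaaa

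In the Gbp3 and Gbp7 stretches the capitals read the same 10 letters, TTTCAGTTTC. The matches of Irf1, Gbp2, Gbp3, Gbp7, Irgm1 and Igtp began between 90 and 30 bases before the start, whereas that of Cxcl10 began 213 bases before it. A second match overlapped the one shown in Gbp3 and in Irgm1. The gamma-activated site letters of Gbp7 and Igtp did not overlap their response element letters. A match of letters is a description of the window and not evidence of binding.

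The deposited values are log2 RMA values, on which a difference of 1 is a 2-fold difference. Array medians lay between 6.41 and 6.59, and all pairs of arrays correlated between 0.943 and 0.990. Transcripts that a sex does not make (Xist on male arrays, 3 Y-linked genes on female arrays) read up to 5.57, which serves as a rough level of an absent transcript. The cluster of Itga6, the deleted gene, read 11.44 to 11.62 in adenocarcinoma, 10.90 to 11.20 in inflamed and 10.75 to 11.16 in normal mucosa. It averages probes along the transcript without separating the deleted part, so it does not check the genotype. Epithelial markers were high in all groups (Epcam at least 11.54 on every array). Smooth muscle markers were strongly present in inflamed mucosa, where the actin gene Acta2 read 12.12 to 12.73. It read 7.19, 7.26, 6.82 and 10.03 in normal mucosa 1, 2, 4 and 6. The normal group was not uniform for the genes described here. Readings were highest on normal mucosa 1. Second among the 4 normal samples came normal mucosa 6, for 6 of the 7 members and for all 3 shared clusters. Leaving out normal mucosa 1 therefore does not make the group even for every member. The SD of the remaining 3 was 1.30 for Gbp3 and 0.21 for Irf1.

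Normal mucosa 1 gave the highest reading of all 13 arrays for each of the 7 members with a cluster of their own and for each of the 3 shared clusters. Its reading exceeded that of the next normal array 9.91-fold for Cxcl9, 8.14-fold for Iigp1, 3.08-fold for Gbp3, 2.78-fold for Gbp7, 2.57-fold for Cxcl10, 2.36-fold for Irgm1 and 1.72-fold for Irf1. T cell and natural killer cell markers were high on the same array. The mean of 18 such markers was 7.22 there, against 5.84 to 6.01 on the other normal arrays, 5.97 to 6.12 in inflamed mucosa and 5.70 to 5.87 in adenocarcinoma, and 17 of the 18 genes peaked on it. Cd3e, a chain of the T cell receptor complex, read 8.66 there and 6.84 to 7.62 on the other 12 arrays. Ncr1, a natural killer cell receptor, read 5.59 there and 4.53 to 5.33 elsewhere, at or under the level of an absent transcript. Among the normal arrays it also had the highest mean of 14 macrophage and dendritic cell markers (7.67, the others 6.58 to 6.95) and of 11 neutrophil markers (7.63, the others 6.24 to 6.46). The mean of 8 B and plasma cell markers was highest there too (7.16, the others 6.49 to 7.01), unlike those of epithelial, smooth muscle and endothelial markers. The part of these cells in the members' values was not tested. The share of all genes that peak on normal mucosa 1 was not counted. The members' comparisons with normal mucosa are given with and without this array. It was set apart for its high readings of these genes, so tests without it are descriptions.

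Irf1, the factor that carries the signal to later genes, separated normal from mutant tissue. In normal mucosa 1, 2, 4 and 6 it read 11.19, 10.41, 10.24 and 9.98. In inflamed mucosa 1 to 4 it read 9.75, 9.55, 9.71 and 9.44. In adenocarcinomas 1, 2, 3, 4 and 6 it read 8.93, 9.03, 9.46, 9.44 and 8.88. Every normal array was above every other array, and the inflamed and tumour arrays overlapped narrowly, between 9.44 and 9.46. A second, dimmer cluster of Irf1 ran from 6.46 to 7.09 in normal mucosa, from 6.42 to 6.75 in inflamed mucosa and from 6.19 to 6.48 in adenocarcinoma, so its groups overlapped.

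Irgm1, an immunity-related GTPase that regulates the effector GTPases of its family, was lowest in the tumours. It read 11.13, 8.87, 9.16 and 9.89 in normal mucosa. The inflamed arrays gave 9.16, 9.26, 8.56 and 9.86, so that inflamed mucosa 3 was below every normal array and the other 3 were within the normal range. The adenocarcinomas gave 8.07, 8.07, 8.50, 8.91 and 7.24, so that only adenocarcinoma 4 reached the normal range. The cluster shared by Igtp and Irgm2, of the same family, read 10.30, 7.44, 7.68 and 9.0 in normal mucosa and 7.85, 7.54, 7.51 and 8.76 in inflamed mucosa. Its adenocarcinoma readings were 6.57, 6.21, 6.98, 7.64 and 5.92, again with only adenocarcinoma 4 inside the normal range.

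Iigp1, an effector GTPase of this family, was dim on most arrays. It exceeded the level of an absent transcript, 5.57, on 8 of 13 arrays. Normal mucosa read 9.38, 4.67, 5.13 and 6.35, the widest spread of any member (SD 2.12, n = 4). Inflamed mucosa read 6.65, 6.15, 5.90 and 6.48 and adenocarcinoma 5.34, 5.45, 5.74, 6.77 and 5.44. The lowest readings were those of the 2 normal arrays from males, below each of the inflamed and tumour arrays.

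Gbp3 and Gbp7, guanylate-binding proteins of one gene cluster on chromosome 3, followed nearly the same course over the arrays. Gbp3 read 10.26, 6.54, 6.25 and 8.63 in normal mucosa, 7.48, 7.40, 7.12 and 8.31 in inflamed mucosa and 6.23, 6.58, 6.54, 7.57 and 6.55 in adenocarcinoma. Gbp7 read 10.12, 6.82, 6.75 and 8.64 in normal mucosa, 7.76, 8.01, 7.70 and 8.28 in inflamed mucosa and 6.75, 7.22, 7.35, 7.69 and 6.81 in adenocarcinoma. For both genes the 2 female normal arrays were above all inflamed arrays and the 2 male normal arrays were below them. The inflamed Gbp7 readings lay just above the tumour readings, with 7.70 as the lowest inflamed and 7.69 as the highest tumour value.

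The cluster of Gbp2 and Gbp2b read 11.96, 9.76, 8.55 and 9.78 in normal mucosa. Inflamed mucosa read 9.56, 8.92, 8.82 and 9.37 and adenocarcinoma 6.78, 7.10, 7.74, 8.98 and 6.86, so that 4 of the 5 tumours were below every other array. The cluster of Gbp6 and 5 relatives read 9.26, 5.75, 5.88 and 7.48 in normal mucosa, 6.87, 6.81, 6.74 and 7.19 in inflamed mucosa and 5.79, 6.05, 6.40, 6.81 and 5.90 in adenocarcinoma. The course of this second cluster resembled that of Gbp3 and Gbp7. Guanylate-binding protein genes are alike in sequence, and how far probes of 1 gene detect another was not tested.

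The chemokines differed from each other between tissues. Cxcl9 read 10.41, 6.43, 6.38 and 7.10 in normal mucosa, 8.71, 7.67, 7.20 and 8.22 in inflamed mucosa and 6.57, 5.84, 7.16, 9.14 and 6.39 in adenocarcinoma. All 4 inflamed arrays thus exceeded 3 of the 4 normal arrays, and adenocarcinoma 4 exceeded all inflamed arrays. Cxcl10 read 8.27, 5.94, 5.74 and 6.90 in normal mucosa, 5.92, 5.73, 5.43 and 5.65 in inflamed mucosa and 5.59, 5.15, 5.12, 6.44 and 5.62 in adenocarcinoma. It exceeded the level of an absent transcript on 10 of 13 arrays, and its inflamed readings lay in a narrow band close to that level.

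**Figure D1:**
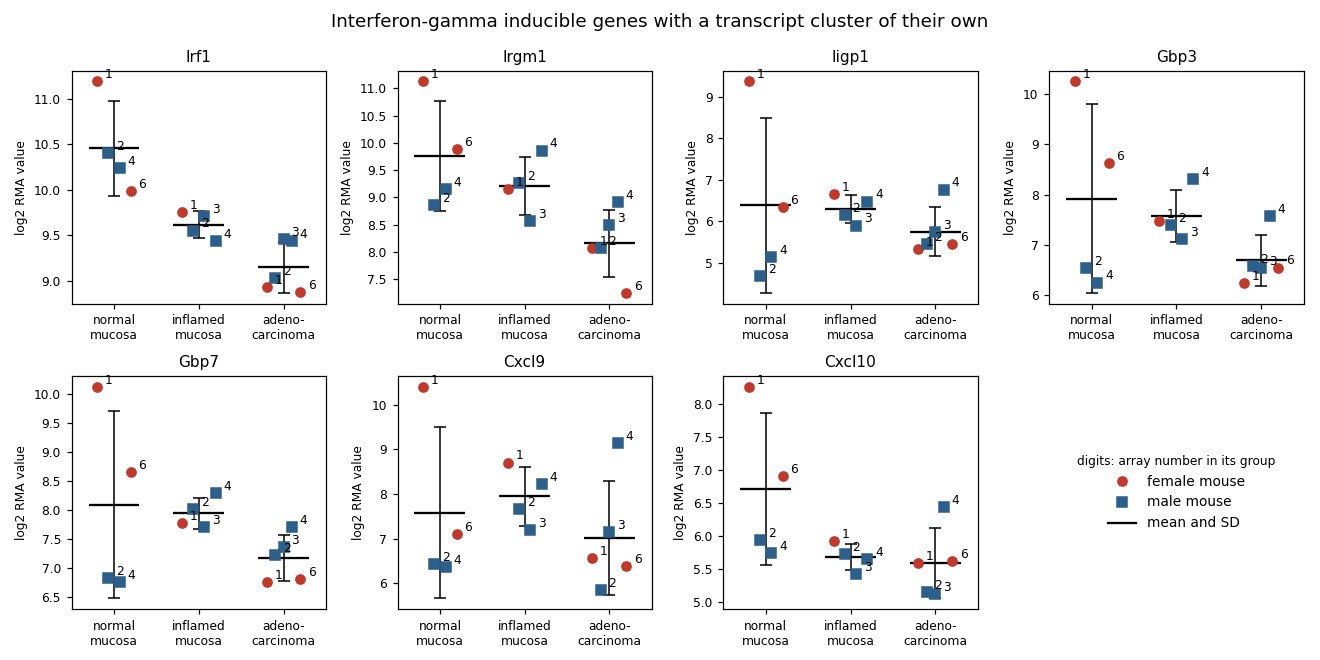
Log2 RMA value (vertical axis) of the 7 members with a cluster of their own on each of the 13 arrays, by tissue, with red circles for females, blue squares for males, digits for the array number and a bar for mean and SD. Normal mucosa 1 is the highest point in every panel, and Irf1 is the only panel in which all 4 normal arrays lie above all others.

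Adenocarcinoma had less Irf1 and Irgm1 RNA than normal mucosa, and Gbp3, Gbp7, Iigp1 and Cxcl9 did not pass the test. Irf1 fell 2.48-fold (log2 difference -1.31 ± 0.21 SE, 5 against 4 arrays, limma adjusted p = 0.000296), and the arrays did not overlap. Leaving out normal mucosa 1 gave -1.06 (limma adjusted p = 0.00021). Irgm1 fell 3.04-fold (-1.60 ± 0.43, limma adjusted p = 0.0105), and 2.22-fold without normal mucosa 1 (-1.15, limma adjusted p = 0.025). Both calls held in all 23 alternative settings. In tissue RNA of this kind, fewer cells of a type and less RNA per cell cannot be told apart.

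Cxcl10 was lower in adenocarcinoma, where 2 of 5 arrays read below the level of an absent transcript, and passed the threshold by a margin in the fifth decimal (-1.13 ± 0.42, limma adjusted p = 0.0499739). The call was lost in 18 of 23 alternatives, with limma adjusted p between 0.0181 and 0.128 over all of them. Without normal mucosa 1 the difference was -0.61 (limma adjusted p = 0.128), and with the replicate block -1.03 (limma adjusted p = 0.0787). Of the 13 arrays, only the removal of adenocarcinoma 4, normal mucosa 2 or normal mucosa 4 kept the call.

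Counting Cxcl10, 3 of the 7 members were called lower and 0 higher in adenocarcinoma, where limma called 19.4% of all genes lower and 16.4% higher. The same 3 had an unadjusted p below 0.05, where 5576 of 19938 genes were lower and 3924 higher. When normal mucosa 1 was left out, 2 members were called lower and 0 higher, against 16.5% and 15.3% of all genes. The members' median difference was -1.13 with all arrays and -0.45 without normal mucosa 1, and that of all genes -0.10 in both cases. Among the members that were not called, Gbp3 differed by -1.23 ± 0.64 (limma adjusted p = 0.144) and Gbp7 by -0.92 ± 0.54 (limma adjusted p = 0.186). These 2 values were -0.45 and -0.24 without normal mucosa 1. For Gbp3, removal of normal mucosa 4 gave a call (-1.79, limma adjusted p = 0.0387). Iigp1 differed by -0.64 and Cxcl9 by -0.56, and both turned positive without normal mucosa 1, at 0.36 and 0.39.

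Among the shared clusters, that of Gbp2 and Gbp2b fell by 2.52 on the log2 scale in adenocarcinoma (± 0.59 SE, limma adjusted p = 0.00831 over 35556 clusters). That of Igtp and Irgm2 fell by 1.94 (± 0.54, limma adjusted p = 0.0205). Limma called 12.3% of all clusters lower in this comparison. After removal of normal mucosa 1 the differences were -1.87 (limma adjusted p = 0.0149) and -1.37 (limma adjusted p = 0.048), where 10.4% of clusters were called lower. The cluster of Gbp6 and its relatives differed by -0.90 (limma adjusted p = 0.258), and by -0.18 without normal mucosa 1.

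Inflamed mucosa had less Irf1 RNA than normal mucosa, and no other member passed. Irf1 fell 1.79-fold (-0.84 ± 0.22, 4 against 4 arrays, limma adjusted p = 0.0126), and 1.51-fold without normal mucosa 1 (-0.59, limma adjusted p = 0.0186). This call held in all 23 alternatives. With 1 of 7 members called lower and 0 higher, the shares of all genes were 13% lower and 13.7% higher. The counts stayed at 1 and 0 when normal mucosa 1 was left out, against 10.4% and 12.1%. At an unadjusted p below 0.05, 2 members were lower and 0 higher, and without normal mucosa 1, 1 was lower and 2 higher. Of 19938 genes, 4700 were lower and 3602 higher at that level, and 4316 and 3388 without normal mucosa 1. Cxcl10 differed by -1.03 ± 0.44 (limma adjusted p = 0.095), and by -1.36 (limma adjusted p = 0.0377) without normal mucosa 4.

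For Gbp3, Gbp7 and Iigp1 the sign of the difference in inflamed mucosa rested on normal mucosa 1. Gbp3 differed by -0.35 with all arrays and 0.43 without that array, and Gbp7 by -0.15 and 0.53. Iigp1 differed by -0.09 and 0.91 (limma adjusted p = 0.935 and 0.103). Cxcl9 differed by 0.37 and 1.31 (limma adjusted p = 0.745 and 0.128). Irgm1 differed by -0.55 and -0.10, and Cxcl10 by -1.03 and -0.51. None of these values passed the test, and the members' median moved from -0.35 to 0.43. The shared clusters differed by -0.84 (Gbp2 and Gbp2b, limma adjusted p = 0.359), -0.69 (Igtp and Irgm2, 0.413) and -0.19 (Gbp6 and relatives, 0.847), where 7.31% of clusters were called lower. Without normal mucosa 1 they differed by -0.20, -0.12 and 0.53 (limma adjusted p = 0.815, 0.881 and 0.345), and 5.57% of clusters were called lower.

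**Figure D2:**
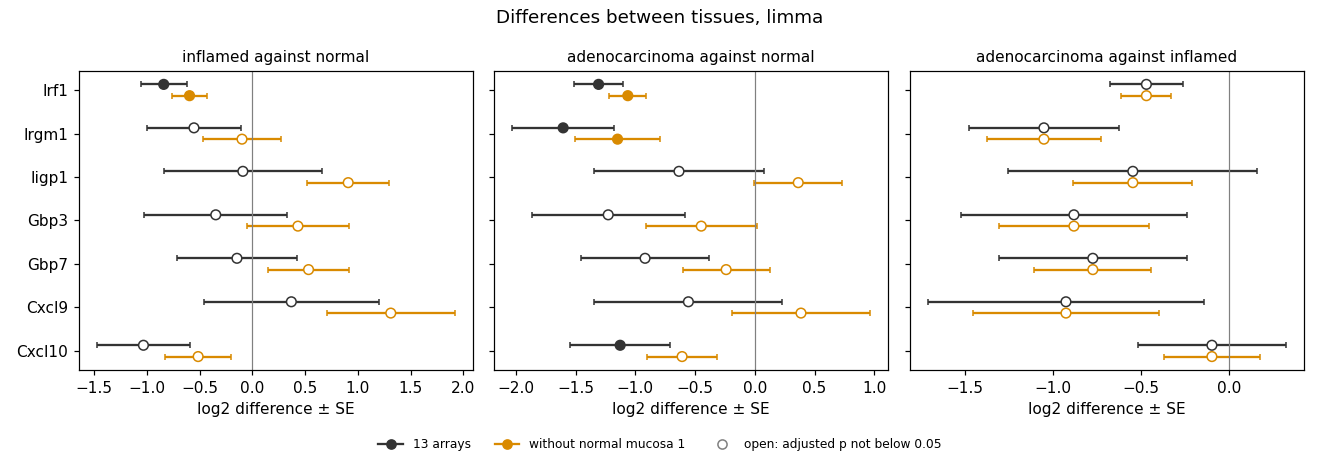
Log2 difference with its standard error (horizontal axis) for 7 members in 3 comparisons, from limma with all 13 arrays (black) and without normal mucosa 1 (orange), filled where the adjusted p was below 0.05. Irf1 is filled in both comparisons with normal mucosa, while Iigp1, Gbp3 and Gbp7 lie on opposite sides of 0 in the 2 fits of inflamed against normal mucosa.

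Between adenocarcinoma and the inflamed mucosa beside it, no member passed the test, although all 7 tumour means were below the inflamed means. Irgm1 differed by -1.05 ± 0.43 (limma adjusted p = 0.179), Irf1 by -0.47 ± 0.21 (limma adjusted p = 0.224) and Gbp7 by -0.77 ± 0.54 (limma adjusted p = 0.507). Gbp3 differed by -0.88, Cxcl9 by -0.93, Iigp1 by -0.55 and Cxcl10 by -0.10. Limma called 0 of 7 members lower and 0 higher, against 4.21% and 2.91% of all genes. At an unadjusted p below 0.05, 2 members were lower and 0 higher, where 2232 of 19938 genes were lower and 1650 higher. The median difference was -0.77, against -0.01 for all genes. With these 2 groups fitted alone, Gbp7 was called lower (limma adjusted p = 0.0365). With a random block of mouse, limma called 2279 genes in place of 1420, and Gbp7 was not among them (-0.75, limma adjusted p = 0.363).

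Normal mucosa 1 enters this comparison only through the spread that the 3 groups share in the fit. Without it the differences were the same and limma's adjusted p was 0.0648 for Irgm1 and 0.0606 for Irf1. Of 7 members, 0 were called in either direction, against 4.97% of all genes lower and 3.32% higher. At an unadjusted p below 0.05, 3 members were lower and 0 higher, where 2385 of 19938 genes were lower and 1734 higher. The cluster of Gbp2 and Gbp2b differed by -1.68 ± 0.59 (limma adjusted p = 0.181, and 0.058 without normal mucosa 1). The clusters of Igtp and Irgm2 and of Gbp6 and its relatives differed by -1.25 and -0.71. Their limma adjusted p was 0.307 and 0.699, where 1.75% of clusters were called lower, or 1.88% without normal mucosa 1.

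Tumour and inflamed arrays of the same number carry the same sex and age and were compared pair by pair. Normal mucosa 1, 2 and 4 carry the sex and age of their numbers too and were not paired, so these labels do not mark a shared mouse. Gbp3 was lower in the tumour of each pair, by -1.25, -0.82, -0.57 and -0.74 in pairs 1 to 4, and so was Gbp7, by -1.01, -0.80, -0.34 and -0.59. Irgm1 differed by -1.09, -1.19, -0.06 and -0.95. Irf1 differed by -0.83, -0.52, -0.26 and, in pair 4, by -0.00024. Thus 4 of 7 members were lower in the tumour of all 4 pairs, Irf1 by next to nothing in the last. How many of all genes were lower in all 4 pairs was not counted.

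The remaining members turned in pair 4. Cxcl9 differed by -2.14, -1.82, -0.04 and 0.92, Iigp1 by -1.31, -0.70, -0.16 and 0.29, and Cxcl10 by -0.33, -0.58, -0.30 and 0.80. Adenocarcinoma 4 gave the highest tumour reading of 6 of the 7 members, Irf1 being the exception with adenocarcinoma 3. All 3 shared clusters were lower in the tumour of each pair, that of Gbp2 and Gbp2b by -2.78, -1.82, -1.08 and -0.40. Every cell type marker list except the epithelial one had its highest tumour mean on adenocarcinoma 4. Macrophage and dendritic cell markers averaged 8.19 there (14 markers, other tumours 7.57 to 7.91) and neutrophil markers 8.96 (11 markers, other tumours 7.80 to 8.86). T and natural killer cell markers averaged 5.874 (other tumours 5.696 to 5.835) and smooth muscle markers 8.537 (8.251 to 8.464). Endothelial markers averaged 8.71 (8.398 to 8.561) and B and plasma cell markers 8.262 (6.751 to 8.153). Their part in the members' readings was not tested.

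**Figure D3:**
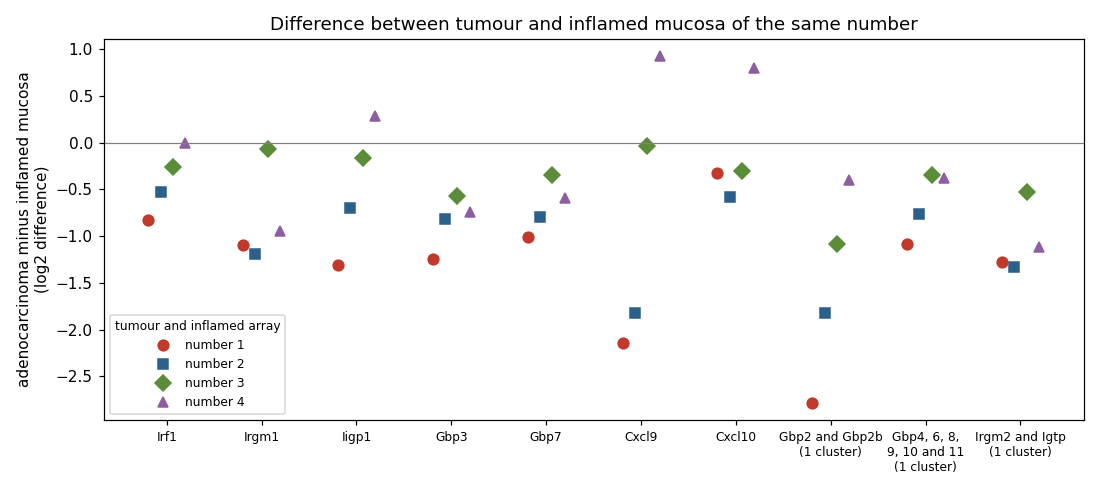
Difference between adenocarcinoma and inflamed mucosa of the same number (vertical axis, log2) for 7 members and 3 shared clusters, with 1 symbol per pair. Gbp3, Gbp7, Irgm1 and the shared clusters lie below 0 in all 4 pairs, while Cxcl9, Cxcl10 and Iigp1 lie above 0 in pair 4.

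Within normal mucosa, both female arrays were above both male arrays for 6 of the 7 members, all but Irf1. The share of all genes ordered in this way was not counted. Gbp7 averaged 9.38 in the 2 females and 6.78 in the 2 males and was called higher in females (2.60 ± 0.37, limma adjusted p = 0.0253). Gbp3 averaged 9.45 and 6.40 (limma adjusted p = 0.0737), Iigp1 7.87 and 4.90 (limma adjusted p = 0.287) and Cxcl9 8.75 and 6.41 (limma adjusted p = 0.672). Limma called 1 of 7 members higher and 0 lower in females, against 0.115% and 0.0301% of all genes. At an unadjusted p below 0.05, 6 members were higher and 0 lower, where 1476 of 19938 genes passed in either direction. Earlier results of these data had shown this split, so these tests are descriptions.

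The call of Gbp7 was lost without adenocarcinoma 1, 3 or 6 or inflamed mucosa 2. Leaving out a normal array leaves 1 animal of a sex in normal mucosa, so only differences are given there. Gbp7 differed by 1.86 without normal mucosa 1 and by 3.33 without normal mucosa 6. With 2 animals a sex, a sex and single animals cannot be told apart. In adenocarcinoma the female mean was below the male mean for Gbp3 (6.39 and 6.90), Gbp7 (6.78 and 7.42), Iigp1, Irgm1, Irf1 and Cxcl9, and close to it for Cxcl10 (5.60 and 5.57). The change of the sex difference between tissues was -3.24 ± 0.50 for Gbp7 (limma adjusted p = 0.0785). Limma called 0 members in either direction for it, against 0.00502% of all genes lower and 0% higher. At an unadjusted p below 0.05, 6 members were lower and 0 higher, where 1931 of 19938 genes passed in either direction. For Gbp7 the change was -2.50 without normal mucosa 1 and -3.97 without normal mucosa 6.

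Ifng, the gene of interferon-gamma, read 6.85, 5.91, 5.68 and 5.78 in normal mucosa, 5.88, 5.68, 5.72 and 5.75 in inflamed mucosa and 5.55 to 5.68 in adenocarcinoma. Against 5.57 for an absent transcript, it thus stood clearly apart on normal mucosa 1 only, where the members were highest too. Its difference was -0.42 ± 0.18 in adenocarcinoma (limma adjusted p = 0.0812) and -0.30 in inflamed mucosa (limma adjusted p = 0.242) against normal mucosa, and -0.16 and -0.035 without normal mucosa 1 (limma adjusted p = 0.158 and 0.783). Of the 11 genes of the ligand and its inducers, limma called 1 higher and 3 lower in adenocarcinoma and 1 higher and 2 lower in inflamed mucosa. These counts were 2 and 2, and 1 and 1, without normal mucosa 1. Shares of all genes called higher and lower were 16.4% and 19.4% in adenocarcinoma and 13.7% and 13% in inflamed mucosa. Without that array they were 15.3% and 16.5%, and 12.1% and 10.4%. Il18rap, a subunit of the interleukin-18 receptor, rose in adenocarcinoma by 0.91 (limma adjusted p = 0.00306). The cytokine subunit Il27 fell in adenocarcinoma by 0.39 and in inflamed mucosa by 0.43 (limma adjusted p = 0.0163 and 0.0173). Stat4, which relays interleukin-12, rose in inflamed mucosa by 1.00 (limma adjusted p = 0.0239, and 0.0555 with the replicate block). Without normal mucosa 1 its rise was 1.34 in inflamed mucosa and 0.75 in adenocarcinoma (limma adjusted p = 0.000606 and 0.0135). Both Il18rap and Stat4 read below the level of an absent transcript on normal mucosa 2, 4 and 6, so these values give no exact fold. Tbx21, a T cell factor that drives Ifng, fell in adenocarcinoma by 0.43 (limma adjusted p = 0.0276), a call lost without normal mucosa 1 (limma adjusted p = 0.0802) and with the replicate block (0.0627).

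Both receptor subunits were lower in mutant tissue. Ifngr1 read 12.35, 12.48, 12.30 and 12.10 in normal mucosa, 11.36, 11.59, 11.70 and 11.77 in inflamed mucosa and 11.19, 11.25, 11.53, 11.36 and 11.16 in adenocarcinoma. Every normal array was above every array of mutant tissue, and normal mucosa 1 did not stand apart. Ifngr1 fell 2.01-fold in adenocarcinoma (-1.01 ± 0.11, limma adjusted p = 1.33e-05) and 1.62-fold in inflamed mucosa (-0.70 ± 0.12, limma adjusted p = 0.000665). Ifngr2 fell by 0.40 and 0.48 (limma adjusted p = 0.00398 and 0.00252).

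Of the 10 measured receptor and signalling genes, limma called 1 higher and 4 lower in adenocarcinoma and 0 higher and 3 lower in inflamed mucosa. The shares of all genes were 16.4% higher and 19.4% lower in adenocarcinoma and 13.7% and 13% in inflamed mucosa. Irf2, which opposes Irf1 at shared sites, fell by 0.66 and 0.47 (limma adjusted p = 0.00152 and 0.0236). Irf9, the DNA-binding part of the type I interferon complex, fell in adenocarcinoma by 1.32 (limma adjusted p = 0.00161). Socs3, a feedback inhibitor of JAK signalling, rose in adenocarcinoma by 1.24 against normal and by 1.09 against inflamed mucosa (limma adjusted p = 0.00161 and 0.0156).

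**Figure D4:**
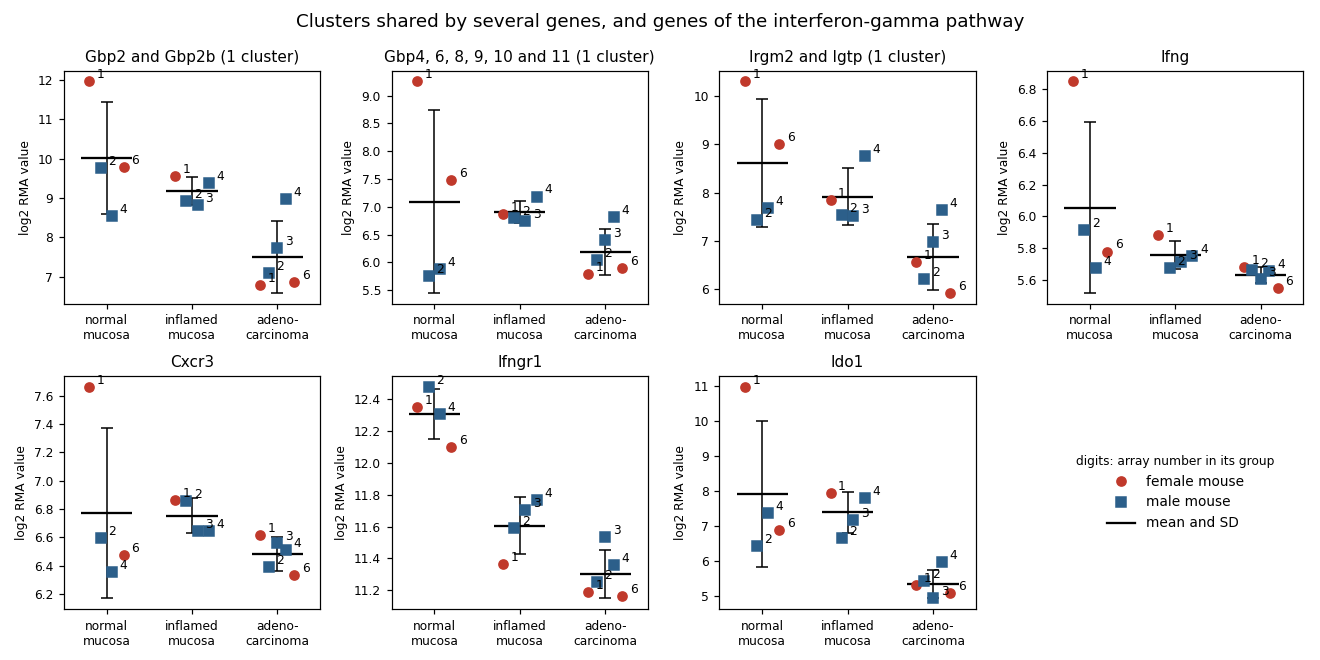
Log2 RMA value (vertical axis) of the 3 clusters shared by several genes and of Ifng, Cxcr3, Ifngr1 and Ido1 on each array, by tissue, with red circles for females, blue squares for males and a bar for mean and SD. Ifngr1 separates normal from mutant tissue on every array, while Ifng and Cxcr3 stand out on normal mucosa 1.

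Of the 10 other interferon-inducible GTPases measured, limma called 0 higher and 2 lower in adenocarcinoma and 0 in either direction in inflamed mucosa (also 0 at an unadjusted p below 0.05). Of all genes, 16.4% were called higher and 19.4% lower in adenocarcinoma, and 13.7% and 13% in inflamed mucosa. At an unadjusted p below 0.05, 3602 of 19938 genes were higher and 4700 lower in inflamed mucosa. Without normal mucosa 1 none was called in adenocarcinoma (2 lower and 0 higher at an unadjusted p below 0.05), against 16.5% of all genes lower and 15.3% higher. Without that array, 5161 of 19938 genes were lower and 3710 higher in adenocarcinoma at the unadjusted level. Gbp4 and Gbp9 were then called higher in inflamed mucosa (limma adjusted p = 0.0143 and 0.0282), against 12.1% of all genes. That array was left out for its high readings of such genes, so these 2 calls are descriptions. Gm12250, an immunity-related GTPase, fell in adenocarcinoma by 2.19 (limma adjusted p = 0.0234) and Gbp11 by 0.46 (limma adjusted p = 0.0477). Both calls were lost without normal mucosa 1 (-1.41 and -0.23, limma adjusted p = 0.0567 and 0.0974) and with the replicate block (limma adjusted p = 0.0533 and 0.063). Gbp11 exceeded the level of an absent transcript on 1 array, normal mucosa 1. Cxcr3, the receptor of CXCL9 and CXCL10, read 7.66 on normal mucosa 1 and 6.34 to 6.86 on the other 12 arrays. It differed by -0.29 in adenocarcinoma and -0.02 in inflamed mucosa against normal (limma adjusted p = 0.276 and 0.956). The values were 0.0086 and 0.28 without normal mucosa 1 (limma adjusted p = 0.952 and 0.0685). Dpp4, a protease that trims these chemokines, fell in adenocarcinoma against inflamed mucosa by 0.83 (limma adjusted p = 0.046).

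Of 16 other interferon-gamma effectors measured, limma called 8 lower and 1 higher in adenocarcinoma, and 4 lower and 1 higher in inflamed mucosa. Leaving out normal mucosa 1 gave 9 and 1, and 2 and 2. Shares of all genes called lower and higher were 19.4% and 16.4% in adenocarcinoma and 13% and 13.7% in inflamed mucosa. Without that array they were 16.5% and 15.3%, and 10.4% and 12.1%. The immunoproteasome subunits Psmb10 and Psmb8 fell in adenocarcinoma by 0.85 and 1.34 (limma adjusted p = 0.00111 and 0.00177) and in inflamed mucosa by 0.73 and 0.89 (limma adjusted p = 0.00684 and 0.0337). The latter Psmb8 value was -0.52 without normal mucosa 1 (limma adjusted p = 0.034) and was not called with the replicate block (limma adjusted p = 0.0599). Batf2 and Casp1, the inflammatory caspase, fell in adenocarcinoma by 1.06 and 1.09 (limma adjusted p = 0.002 and 0.0042). Fcgr1, a macrophage antibody receptor, was the gene that rose in inflamed mucosa, by 0.40 (limma adjusted p = 0.0285, and 0.0559 with the replicate block), and in adenocarcinoma, by 0.35 (limma adjusted p = 0.0309).

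Ido1, an effector that degrades tryptophan, was also highest on normal mucosa 1. It read 10.97, 6.41, 7.36 and 6.88 in normal mucosa, 7.93, 6.65, 7.16 and 7.78 in inflamed mucosa and 5.30, 5.41, 4.92, 5.97 and 5.07 in adenocarcinoma. All tumours were below all other arrays. It fell by 2.57 on the log2 scale against normal mucosa (± 0.70 SE, limma adjusted p = 0.0117), and by 1.55 without normal mucosa 1 (limma adjusted p = 0.00186). On 4 of the 5 tumours it read below the level of an absent transcript, 5.57, so these values give no exact fold. Against inflamed mucosa it differed by -2.04 (limma adjusted p = 0.102, and 0.000771 without normal mucosa 1).

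Over all 5 pathway lists, 50 of 59 genes were measured. Limma called 17 lower and 3 higher in adenocarcinoma, 9 lower and 2 higher in inflamed mucosa, and 1 in each direction between those tissues. Without normal mucosa 1 the counts were 15 and 4, 6 and 5, and 3 and 2. For these counts and the marker counts below, the shares of all genes were 19.4% lower and 16.4% higher in adenocarcinoma. In inflamed mucosa they were 13% and 13.7%, and between adenocarcinoma and inflamed mucosa 4.21% and 2.91%. Without that array the shares were 16.5% and 15.3%, 10.4% and 12.1%, and 4.97% and 3.32%. Median differences of the 50 genes were -0.41, -0.32 and -0.17, and -0.21, -0.11 and -0.17 without that array. Of 14 macrophage and dendritic cell markers, limma called 9 higher and 0 lower in inflamed mucosa and 9 higher and 1 lower in adenocarcinoma. Of 18 T and natural killer cell markers, limma called 5 lower and 0 higher in adenocarcinoma and 1 in each direction in inflamed mucosa. When normal mucosa 1 was left out these were 4 lower and 1 higher, and 0 lower and 2 higher. The mean of these 18 markers was 5.70 to 6.12 on the arrays other than normal mucosa 1, close to the level of an absent transcript, 5.57. Smooth muscle and endothelial markers were called higher in inflamed mucosa in 12 of 12 and 11 of 11 cases, and in adenocarcinoma in 10 and 11. Of 8 B and plasma cell markers, 7 were called higher in inflamed mucosa. The part of these cells in the members' differences was not tested.

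**Figure D5:**
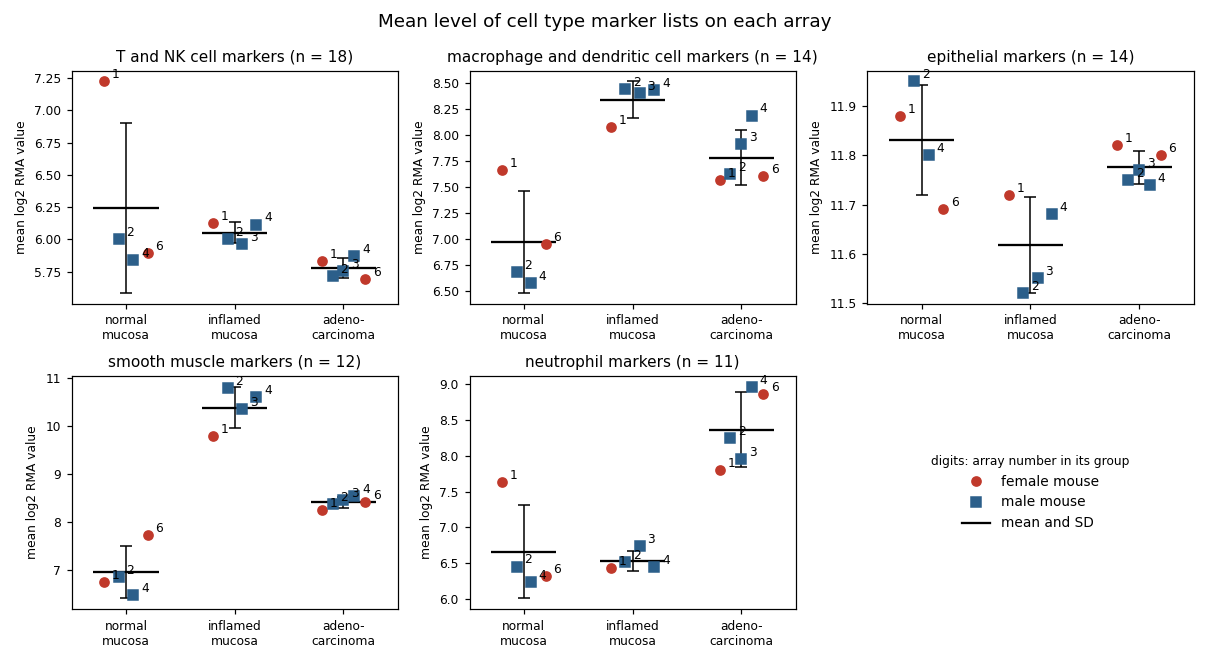
Mean log2 RMA value (vertical axis) of 5 cell type marker lists on each array, by tissue, with red circles for females, blue squares for males and a bar for mean and SD. T and natural killer cell markers are highest on normal mucosa 1, smooth muscle markers in inflamed mucosa and neutrophil markers in adenocarcinoma.

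A list of type I interferon-stimulated genes, which are induced through response elements of the same kind, had 18 of 20 genes measured. Limma called 18 of the 18 lower in adenocarcinoma (median difference -2.39), and 14 without normal mucosa 1 (median -1.66). In inflamed mucosa 5 were called lower and 0 higher (median -1.19), and 3 and 0 without normal mucosa 1 (median -0.70). Its mean level was 10.76 and 10.09 on the female and 8.02 and 8.40 on the male normal arrays. Of 6 measured genes of antigen presentation by class II molecules, limma called 2 lower in adenocarcinoma, or 1 without normal mucosa 1. In inflamed mucosa 1 was called lower and 0 higher (median -0.06), and without normal mucosa 1, 1 lower and 1 higher, H2-Eb1 (0.87, limma adjusted p = 0.0211; median 0.49). Beside the counts of both lists, limma called 19.4% of all genes lower and 16.4% higher in adenocarcinoma, and 13% and 13.7% in inflamed mucosa. Without normal mucosa 1 these shares were 16.5% and 15.3%, and 10.4% and 12.1%. Whether the members differ from either list was not tested.

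Among all other genes, those whose deviations from the tissue means ran closest to the mean deviation of the members over 13 arrays were H2-Q4 (Pearson r = 0.979), Ifi203 (0.962), Ms4a6b (0.962), C2 (0.959), H2-Ab1 (0.955), Mpeg1 (0.955), Cd274 (0.951) and Psmb8 (0.951). H2-Q4 and H2-Ab1 encode antigen-presenting molecules of classes I and II, C2 a complement component, and Mpeg1 a pore-forming protein of macrophages. The likeness was lower without normal mucosa 1. Over those 12 arrays, r was 0.929 for H2-Q4, which then ranked 2, and 0.814 for Psmb8, which ranked 55. For the others of the 8, r was 0.838 to 0.873 and the rank 11 to 29. These correlations share arrays and tissue pieces and are descriptions.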

How the data were processed

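The deposited values are log2 RMA values per transcript cluster. The authors computed them in Affymetrix Expression Console 1.1 from images handled in GeneChip Command Console 2.0, per the labels and design text. Partek is named in the submitters' processing notes with no stated use. RMA brings arrays to a common distribution and compresses differences of dim genes. Precision is limited by the number of arrays. The platform annotation, of 2016, pairs 21789 of 35556 clusters with 1 gene and 1621 with several, and does not list 12146. Entrez identifiers linked 21698 clusters to current symbols (RefSeq, GRCm38.p6). Each of 19938 genes was represented by its brightest cluster on average.

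Tests were made with limma (version 3.58.1, R 4.3.3): lmFit and eBayes on all 3 groups together, without a block, two-sided, with Benjamini-Hochberg adjustment over all genes and a threshold of 0.05. Sex was tested in a fit of 6 groups, and shared clusters in a fit of all clusters, a setting added after the data were seen. The script was tested on simulated data. No label ties a sample to a mouse by name, so p-values measure the spread between these samples. Whether numbers pair samples was checked from deviations around the group means. They correlated at 0.319, 0.198, 0.199 and 0.387 for tumour and inflamed arrays 1 to 4, which were taken as paired. Tumour and inflamed arrays of different numbers correlated between -0.318 and 0.185. Yet adenocarcinoma 1 with normal mucosa 2 gave 0.283 and adenocarcinoma 3 with normal mucosa 4 gave 0.218, so the check does not establish the pairing. For normal arrays and same-numbered others the values were -0.126 to 0.0413, and these were not paired.

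The members and all gene lists were chosen with earlier results of these data known. Beside the members, the text uses genes from those with the smallest adjusted p among called genes of a pathway list, at most 4 per list and comparison, the fixed names Ifng, Ifngr1, Ifngr2 and Cxcr3, with 1 further fixed name not reported here, defining markers, and the 8 genes most like the members, leaving out predicted genes there. Ido1, Itga6, Gbp2b, Gbp4, Gbp9, H2-Eb1 and Cxcl11 were picked after their values were seen. The alternative settings were a fixed block of the replicate number, a random block of mouse, sex or age as a covariate, 2 groups alone, a filter on the dimmest 25% of genes, median centring, cyclic loess, the mean of all clusters, a trended robust variance, and leaving out each array. The fixed block spans all arrays, so normal arrays share it with same-numbered arrays of mutant tissue, with which they were not paired.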

Additional observations from a re-analysis of the deposited data

Results flagged for a closer look

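Of 30 sets of readings of a member or shared cluster in a tissue, 2 had an array far from the others, by a ratio of gap to range above Dixon's critical value, which chance exceeds in about 1 of 20 sets. Both lie on adenocarcinoma 4. Gbp3 read 7.57 there and 6.58 on the next adenocarcinoma (ratio 0.743, critical value 0.71, n = 5). Iigp1 read 6.77 there and 5.74 on the next adenocarcinoma (ratio 0.723). Neither gene was called in the comparisons of tissues, and leaving out this array gave no call for either.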

How the results depend on the processing

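The calls of Irf1 (both comparisons with normal mucosa) and Irgm1 (adenocarcinoma against normal) held in all 23 alternatives. Members called lower in inflamed mucosa numbered 1, and 1 to 2 on leaving out each array. Between adenocarcinoma and inflamed mucosa the count was 0, and 1 with the 2 groups alone. The count higher in females of normal mucosa was 1, and 0 with median centring or with the shared clusters counted. Median centring also left 11 genes higher and 6 lower in females, against 23 and 6. Members with a lower sex difference in adenocarcinoma numbered 0. On leaving out 1 array no counts are given for the sex results, because 1 animal of a sex can remain in a tissue.

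Uncalled values changed sign with other settings. In inflamed against normal mucosa, Iigp1 was 0.13 with sex as a covariate and 0.013 with cyclic loess. On leaving out each array, the values there ran from -0.90 to 0.43 for Gbp3, -0.59 to 0.53 for Gbp7 and -0.66 to 0.91 for Iigp1, each highest without normal mucosa 1, and from -0.030 (without normal mucosa 4) to 1.31 for Cxcl9. In adenocarcinoma against normal mucosa they ran from -1.21 to 0.36 for Iigp1 and from -1.09 to 0.39 for Cxcl9, both highest without normal mucosa 1. Against inflamed mucosa Cxcl10 ran from -0.31 to 0.019, highest without adenocarcinoma 3. The female difference of Irf1 in normal mucosa ran from -0.34 (without normal mucosa 1) to 0.87. The causes were not tested. With the replicate block the call of Cxcl10 was lost (-1.03, limma adjusted p = 0.0787), and no other member call changed. That block also joins normal arrays to tumour and inflamed arrays of the same number, which were not taken as paired. Over all genes, adenocarcinoma against inflamed mucosa gave 1420 calls, 2279 with a random block of mouse and 775 without inflamed mucosa 2, and inflamed against normal mucosa 5322, and 3524 without inflamed mucosa 2. Iigp1 and Cxcl10 read near or below the level of an absent transcript on some arrays, where RMA can compress differences. How far their differences were compressed was not measured.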

Other observations

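Gbp2b, which shares a cluster with Gbp2, also had a cluster of its own, and there it did not follow the members. It read 8.30 on normal mucosa 2 and 7.76 on inflamed mucosa 1, and 4.93 to 5.87 on the other 11 arrays. On normal mucosa 1, where every member peaked, it read 5.87. The shared cluster read 9.76 and 9.56 on those first arrays, 9.78 on normal mucosa 6 and 9.37 on inflamed mucosa 4. Gbp4, which shares the cluster of Gbp6, read 8.75 on normal mucosa 1 on a cluster of its own, 5.55, 5.58 and 6.04 on the other normal arrays and 6.12 to 6.82 in inflamed mucosa. Without normal mucosa 1 it was called higher in inflamed than in normal mucosa (0.74, limma adjusted p = 0.0143), against -0.02 with all arrays (limma adjusted p = 0.985). That array was left out for its high readings of such genes, so the call is a description. Cxcl11, the third ligand of CXCR3, read 7.55 on normal mucosa 1 and 5.36 to 6.36 on the other 12 arrays.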
